A study of Saccharomyces cerevisiae with 18 samples.

Results

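Reads of the BY and the RM allele were compared within the 3 libraries taken 42 min after a temperature shift of a hybrid diploid yeast. The diploid (Saccharomyces cerevisiae) came from mating the laboratory strain BY4716 (BY) with the vineyard strain RM11-1a (RM), and both parents carried rpb1-1, a temperature-sensitive allele of the gene for an RNA polymerase II subunit. All groups share this allele, so there was no culture with a wild-type polymerase. Cultures grew at 24 °C in YEPD, a rich glucose medium, and were brought to 37 °C by adding medium of 50 °C. Each of the 3 independent cultures (replicates 1 to 3) was sampled right after the shift (0 min) and again after 6, 12, 18 and 24 min, with the last aliquot at 42 min. An allelic read is one assigned to a parent at a single-nucleotide variant (SNV). Members were the transcript features that averaged 20 or more such reads over the 42 min libraries. This gave 2609 members of 3974 features in the series. Of these, 1926 held 1 gene, 680 held several overlapping genes (written here with a slash) whose reads cannot be told apart, and 3 matched no reference gene. The lowest member mean was 20 reads and the highest mean left out was 19.7, with 148 members between 20 and 25 reads.

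In a diploid hybrid both alleles sit in the same nucleus and meet the same regulatory proteins. An unequal number of reads from them, here called allele-specific expression (ASE), can therefore mark sequence differences linked to the gene itself. Reads can also be unequal where a gene is deleted in a parent, where reads of the parents map unequally, or where a near-identical copy exists. These sources were not separated by a test. Allele ratios at a late time reflect the mRNA present before the shift, its decay, and any mRNA made afterwards. Heat shock in yeast is known to induce chaperone genes through the factor Hsf1, which binds heat shock elements, and a wide set of stress genes through Msn2 and Msn4, which bind the stress response element (STRE). A total of 102 members had under 20 mean reads at 0 min, so their allele ratio could be tested at 42 min and not before.

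Upstream sequences of 4 of these 102 features are shown as examples. They are XBP1, with more BY reads, PHM7, with more RM reads, and SSA4 and CTT1, textbook heat-induced genes. Each run spans bases -400 to -101 before the start codon, 5′ to 3′ on the gene's strand, from the RefSeq reference genome R64, which stands for the BY side only. The RM sequence was not used here. Capitals mark the STRE core AGGGG, or CCCCT on the other strand, and a pair of heat shock units, GAANNTTC or TTCNNGAA. XBP1 lies at chrIX:177351-177650 (minus strand), PHM7 at chrXV:161956-162255, SSA4 at chrV:364189-364488 and CTT1 at chrVII:654234-654533 (the last 3 on the plus strand).
XBP1: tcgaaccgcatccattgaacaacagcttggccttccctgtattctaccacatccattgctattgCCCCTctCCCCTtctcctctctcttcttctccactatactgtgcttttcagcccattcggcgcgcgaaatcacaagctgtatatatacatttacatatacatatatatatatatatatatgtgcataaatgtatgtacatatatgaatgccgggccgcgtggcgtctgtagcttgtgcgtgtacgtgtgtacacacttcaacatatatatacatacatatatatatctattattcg
PHM7: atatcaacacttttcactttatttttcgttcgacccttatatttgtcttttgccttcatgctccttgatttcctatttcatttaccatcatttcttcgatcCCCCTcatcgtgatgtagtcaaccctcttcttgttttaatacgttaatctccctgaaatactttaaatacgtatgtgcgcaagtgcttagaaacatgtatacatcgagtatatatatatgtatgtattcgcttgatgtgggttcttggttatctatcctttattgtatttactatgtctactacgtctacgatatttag
SSA4: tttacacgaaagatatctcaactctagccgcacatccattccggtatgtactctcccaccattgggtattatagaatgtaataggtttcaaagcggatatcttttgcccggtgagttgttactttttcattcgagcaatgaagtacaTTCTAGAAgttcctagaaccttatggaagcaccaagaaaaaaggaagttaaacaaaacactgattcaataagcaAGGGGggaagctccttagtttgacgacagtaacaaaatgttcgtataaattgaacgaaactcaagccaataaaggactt
CTT1: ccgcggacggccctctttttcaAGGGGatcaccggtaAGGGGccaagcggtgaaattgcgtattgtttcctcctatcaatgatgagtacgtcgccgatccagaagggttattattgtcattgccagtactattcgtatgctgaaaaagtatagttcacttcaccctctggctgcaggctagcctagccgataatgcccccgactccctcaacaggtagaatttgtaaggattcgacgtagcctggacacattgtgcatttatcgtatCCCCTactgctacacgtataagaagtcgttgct
XBP1 held 2 STRE matches in the printed run, PHM7 held 1, CTT1 held 3, and SSA4 held 1 with 1 pair of heat shock units. The 4 printed runs thus all held a match, whereas the same bases of TKL2, NCA3 and YRO2, also among the 102, held none and are not printed. Among the 500 bases before each start codon, an STRE core stood in 34.1% of 6000 nuclear genes, in 36.3% of 1922 single-gene members and in 44 of the 83 single-gene features that were under the read minimum at 0 min (53.0%). Of the 19 of those with at least 100 reads at 42 min, 15 held one (78.9%). The heat shock pair stood in 35.2% of all genes, in 31.3% of the 83 and in 8 of the 19 (42.1%). A match is a description of letters and no evidence of binding.

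The 42 min libraries held 665992, 850817 and 944577 allelic reads, against 439453 to 1180513 in the other libraries apart from 18 min replicate 3 (74320). The median member had 113 reads per library over 6 SNVs. BY reads made up 49.6% ± 0.0712 of the members' reads at 42 min and 49.4% ± 0.00835 at 0 min (SD, n = 3), with an exact two-sided sign-flip p of 0.25, the smallest that 3 pairs allow. LYS2, a lysine synthesis gene that is deleted in BY4716, checked the labels: at 42 min it had 0 BY reads in each library and 47, 91 and 59 RM reads. Its RM reads were thus at least 65.7-fold higher than BY reads, taking a floor of 3 counts over the 3 libraries. Of 19 features listed as haploid-specific or mating genes, known to be low in diploids except the meiotic IME1, 6 were members at 42 min. SST2 and FAR1, single-gene features, had 63 and 56 mean reads, and the other 4 (STE2/BST1, STE18/EMC2, MFA1/CMI8 and UBA1/STE6) share a feature with another gene. The remaining features had at most 10.7 mean reads, and STE3, GPA1 and FUS3 at most 1. RPO21, the gene that carries rpb1-1, shares a feature with BPL1, whose BY share was 94.6% ± 0.722 at 42 min and 93.9% ± 0.287 at 0 min.

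At 42 min, 738 of the 2609 members (28.3%) differed between alleles by the quasi-likelihood test of edgeR, taking Benjamini-Hochberg adjusted p-values under 0.05 as called. BY was higher in 354 (13.6%) and RM in 384 (14.7%). A fit without the library term called 205 of the 738, and DESeq2 called 241 of them. The fit without that term ignores that both alleles come from the same library, so level differences between cultures enter its error. A call lost there does not by itself show an unstable allele ratio. Most differences were small: 401 of the 738 were under 1.5-fold, 168 were between 1.5 and 2-fold, 92 between 2 and 4-fold and 77 above. The median called difference was 1.45-fold, and the median log2(BY/RM) over all members was -0.00. The share called rose with depth. Members with 20 to 50 reads had a median SD of the BY share of 7.44 percentage points between libraries and 13.1% were called, with a median called difference of 2.03-fold. Members with at least 1000 reads had a median SD of 1.15 points and 62.9% were called, at a median of 1.22-fold.

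Some of the largest differences lay next to each other. In 3 chromosome segments known from earlier results of these data, on II (184353 to 267336), IV (255604 to 306577) and XIV (76946 to 106695, coordinates of R64), 46 of 47 members were called and all 46 had more RM reads. The segments came from these same data, so this count and its shared direction were largely built in. How reads of either parent map there was not tested. Their median BY share was 1.10% on II, 13.8% on IV and 0.560% on XIV. The exception was ALK2 on II, a kinase gene related to haspin, at 57.3% ± 7.41. Features with a near-identical gene elsewhere were called in 49 of 76 cases, and their reads may be split between copies. The hexose transporter genes HXT6 and HXT7, neighbouring copies of each other, went opposite ways at 98.2% ± 0.791 and 14% ± 1.81 BY. Outside the segments and copies, 645 of 2488 members (25.9%) were called, 329 with BY and 316 with RM higher. Of these, 103 features differed at least 2-fold, 55 to BY and 48 to RM. Among the features with at least 2-fold differences and several SNVs of at least 20 reads, 425 of 440 such SNVs (96.6%) lay on the same side of 50%, against 77.0% among features under 1.5-fold. The direction and size of each feature come from the sum of these same SNVs. High agreement at large differences is therefore largely built in, and it is no independent support for the calls.

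Among the 102 features under the read minimum at 0 min, 32 were called at 42 min (31.4%), 21 with BY and 11 with RM higher. In the share of the mRNA pool, all 102 rose from 0 to 42 min in the abundance test, where 35.6% of 3132 tested features rose and 72.8% were called either way. Being under the minimum at 0 min and over it at 42 min largely fixes that direction. A rise in share does not show new transcription, since fewer other mRNAs raise it too, and in bulk RNA fewer expressing cells cannot be told apart from less RNA per cell. The counts were read by depth, because the 102 had a median of 38.3 reads per library against 118 for the others. With 20 to 50 reads, 13 of 66 were called (19.7%) against 12.4% of the features tested at both times. With 50 to 100 reads it was 6 of 13 (46.2%) against 20.6%, with 100 to 300 reads 6 of 15 (40%) against 30.7%, and with at least 300 reads 7 of 8 (87.5%) against 47.0%. The class of at least 300 reads has no upper limit, so depth was not matched within it. Over all members, 42.1% were called at 300 to 1000 reads and 62.9% at 1000 or more. The shares of the 102 and of the other features were not tested against each other.

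XBP1, which encodes a stress-induced transcriptional repressor, showed the largest BY excess among them without a near-identical copy and with at least 100 reads. It had 287 BY and 56 RM reads in replicate 1, 409 and 80 in replicate 2, and 553 and 137 in replicate 3. The BY share was 83.7%, 83.6% and 80.1%, and all 9 of its covered SNVs lay above 50%. The log2(BY/RM) was 2.20 ± 0.09 (adjusted p = 5.46e-37, edgeR). The ± given with each log2 value was derived from the F statistic of the test (the log2 value over the root of F) in place of a standard error, and it understates the error where one allele has very few reads. XBP1 rose from 19.4 ± 5.08 to 607 ± 111 CPM (reads scaled to each library's allelic total; SD, n = 3). Its BY share was 81.6% ± 5.30 at 0 min, below the read minimum, 80.3% ± 2.20 at 12 min and 83.2% ± 3.27 at 24 min.

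TKL2, a minor transketolase of the pentose phosphate pathway, had a BY share of 75.2%, 67.0% and 67.5% in the 3 libraries. All lay above 50%, with a log2(BY/RM) of 1.16 ± 0.11 (adjusted p = 2.40e-16, edgeR). The fit without a library term, which ignores the pairing of alleles within a library, did not call TKL2 (0.444). At 0 min its mean of 12 reads gave 12.0% ± 11.2 BY, a value too thin to test. Its level at 42 min also differed between cultures, at 324 ± 247 CPM. GAC1, which targets a protein phosphatase to glycogen synthase, was 67.5% ± 10.3 BY, but its adjusted p was 0.0554 without replicate 2. GIP1, a meiotic partner of that phosphatase, was 73.5% ± 3.0 BY, and NRG2, a repressor in glucose signalling, was 68.0% ± 2.35 BY. MGA1, a protein related to heat shock factors, was 67.1% ± 7.51 BY, COQ4, of ubiquinone synthesis, 67.7% ± 6.72, and HUL4, a ubiquitin ligase homologue, 65.0% ± 6.71 (adjusted p from 4.14e-06 for GIP1 to 0.0275 for HUL4). DESeq2 did not call NRG2, MGA1, COQ4, HUL4 or GAC1 (adjusted p from 0.0546 to 0.629). YPS6, an aspartic protease of the cell surface, had 1, 0 and 5 RM reads against 149, 177 and 322 BY reads, but it has a near-identical neighbour, YPS5.

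More RM reads were found for PHM7, a membrane protein of unknown function. It rose from 7.07 ± 4.88 to 2904 ± 903 CPM, and its BY share at 42 min was 37.7%, 40% and 39.6%. None of its 26 covered SNVs had more BY than RM reads, and log2(BY/RM) was -0.63 ± 0.04 (adjusted p = 2.14e-23, edgeR). The fit without a library term, and so without the pairing of alleles, did not call PHM7 (0.233). NCA3, a cell wall protein of the SUN family, was 33.3%, 37.0% and 32.8% BY (log2 -0.94 ± 0.12, adjusted p = 1.84e-10). MBB1 (32.2% ± 4.88 BY) has no known role, and TLD1/PMP3 (32.7% ± 4.25 BY) includes a small plasma membrane protein gene. DESeq2 called neither (adjusted p = 0.105 and 0.312). YRO2, a membrane protein related to Hsp30, differed little, with 46.0%, 46.5% and 46.2% BY (log2 -0.22 ± 0.06, adjusted p = 0.00356), and 3 of its 9 covered SNVs lay above 50%. DESeq2 did not call it (0.383). The limit of 20 reads of each allele over the 3 libraries left out some larger called differences. To RM these included YBR012C (0 BY and 78 RM reads), YJR149W (2.90% ± 5.02 BY) and DFP1 (29.0% ± 11.2 BY). To BY they included YJR115W/TDA4 (78.7% ± 5.04 BY) and PEX32 (75.5% ± 6.36 BY). TKL2, NCA3 and YRO2 held no match to either motif in bases -400 to -101.

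**Figure D1:**
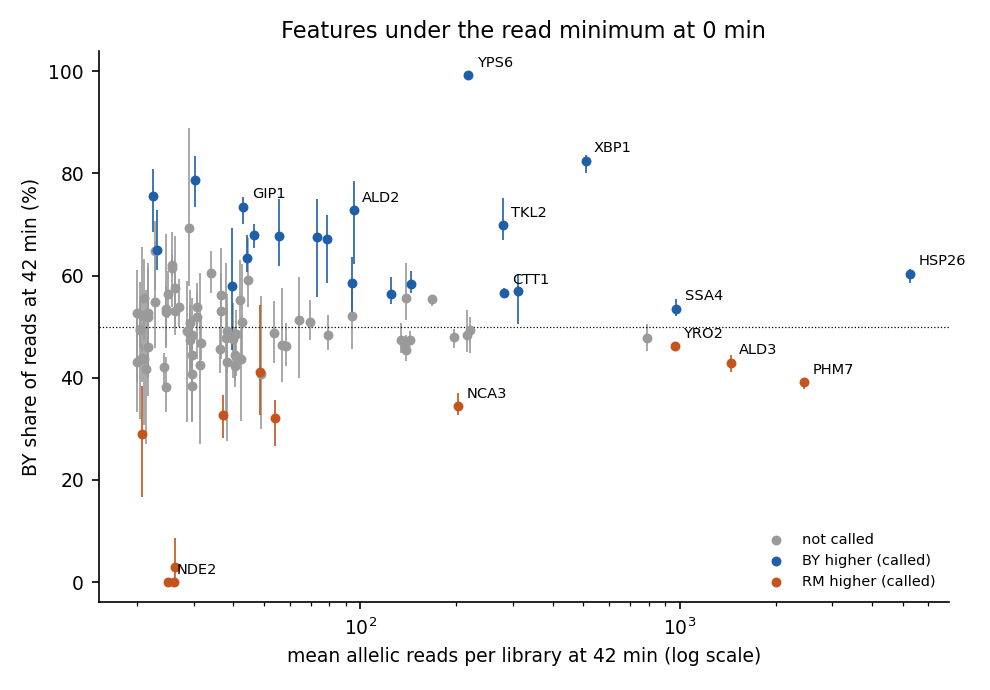
BY share of allelic reads at 42 min (percent) against the mean reads per library (log axis) for the 102 features with under 20 mean reads at 0 min. Points are means of 3 libraries, bars run from the lowest to the highest, and blue and orange mark called features with BY or RM higher. XBP1 at 82.5% stands above HSP26 at 60.3%, and PHM7 lies at 39.1%.

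Allele ratios of 4 heat-induced genes, of which SSA4 and CTT1 were chosen after their values were seen, were as follows. HSP26/YBR072C-A, with the gene of a small heat shock protein, rose from 13.2 ± 1.4 to 6483 ± 1624 CPM. Its BY share was 61.2%, 61.3% and 58.6% at 42 min (log2 0.60 ± 0.03, adjusted p = 1.31e-29, edgeR) and 69.8% ± 0.448 at 6 min. Without a library term in the fit, and so without the pairing of alleles, the call was lost (adjusted p = 0.192). SSA4, an inducible Hsp70, was 52.1%, 55.4% and 53.0% BY (0.19 ± 0.06, adjusted p = 0.0109), read at 1 SNV. CTT1, cytosolic catalase, was 57.5%, 56.2% and 56.2% BY (0.38 ± 0.10, adjusted p = 0.00131), also at 1 SNV. HSP12, a membrane-stabilising stress protein with 8981 mean reads, was 48.9%, 48.4% and 48.1% BY (-0.09 ± 0.03, adjusted p = 0.00427). The HSP12 direction flipped when only its deepest SNV was used (0.14, adjusted p = 0.00248), DESeq2 did not call it (0.713), and its SNVs ranged from 44.0% to 63.4% BY.

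Large differences were ranked outside the segments and copies, among features with at least 100 reads per library and 20 reads of each allele in all. The largest BY excess at 42 min was then that of BPL1/RPO21 given above. Of its 22 covered SNVs 19 lay above 50%, and they ranged from 42.9% to 100% BY. Both parents carry rpb1-1 in RPO21, and the parental sequence around it was not examined, so this share may not reflect expression alone. FAT3, needed for uptake of fatty acids, was 91.2%, 83.1% and 94.0% BY (log2 3.55 ± 0.18, adjusted p = 1.22e-30, edgeR). HAP1, a heme-responsive transcription factor, was 85.9%, 83.8% and 83.5% BY (2.42 ± 0.13, adjusted p = 2.67e-29). In the R64 annotation HAP1 overlaps the end of the transposon YLRWTy1-3. THI7, a thiamine transporter, was 79.9% ± 3.08 BY, and RSF2/YJR128W, with a zinc finger regulator, 79.0% ± 2.62. MUP3/VMR1, with transporters of methionine and of the vacuole, was 76.5% ± 4.13, and URA8/SOD1, with CTP synthase and superoxide dismutase, 75.8% ± 1.17. ATG19, the receptor of a vacuolar targeting pathway, was 73.9% ± 2.51, FPR3, a nucleolar prolyl isomerase, 71.3% ± 2.04, HSL1, a kinase of the morphogenesis checkpoint, 71.3% ± 5.34, and CAT8, an activator of gluconeogenic genes, 69.8% ± 6.15. All 3 libraries of each of these features lay above 50%.

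On the RM side of the same ranking, SFA1, which encodes formaldehyde dehydrogenase, stood lowest with 16.1%, 16.3% and 14.8% BY (log2 -2.42 ± 0.05, adjusted p = 3.46e-60, edgeR), and none of its 8 SNVs exceeded 19.9%. RPL29/MIN10, with a ribosomal protein gene, was 19.8% ± 1.77 BY, read at 1 SNV. PRM10/YJL107C, with a pheromone-regulated membrane protein, was 25% ± 2.27, and CWP1, a cell wall mannoprotein, 25.8% ± 2.54. YLR179C was 30.2% ± 0.558 BY, OAF1/AIM2, with an oleate-responsive activator, 31.4% ± 1.66, and NFS1, the cysteine desulfurase of iron-sulfur assembly, 31.9% ± 2.78. MNN4, of mannose phosphorylation in the wall, was 32.5% ± 4.82, and ERG11, of ergosterol synthesis, 32.7% ± 3.95 at 1 SNV. The call was lost for 3 features of this group in some settings. PFK2, a phosphofructokinase subunit, was 28.1% ± 1.88 BY, but log2(BY/RM) was -0.21 (adjusted p = 0.158) without SNVs under 2% or over 98% BY. PKC1, protein kinase C of the wall integrity pathway, was 27.1% ± 0.262, with -0.46 (adjusted p = 0.0636) in the same setting, and PYC1/DUO1, with pyruvate carboxylase, was 30.6% ± 1.95, with -0.41 (adjusted p = 0.224) at its deepest SNV.

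**Figure D2:**
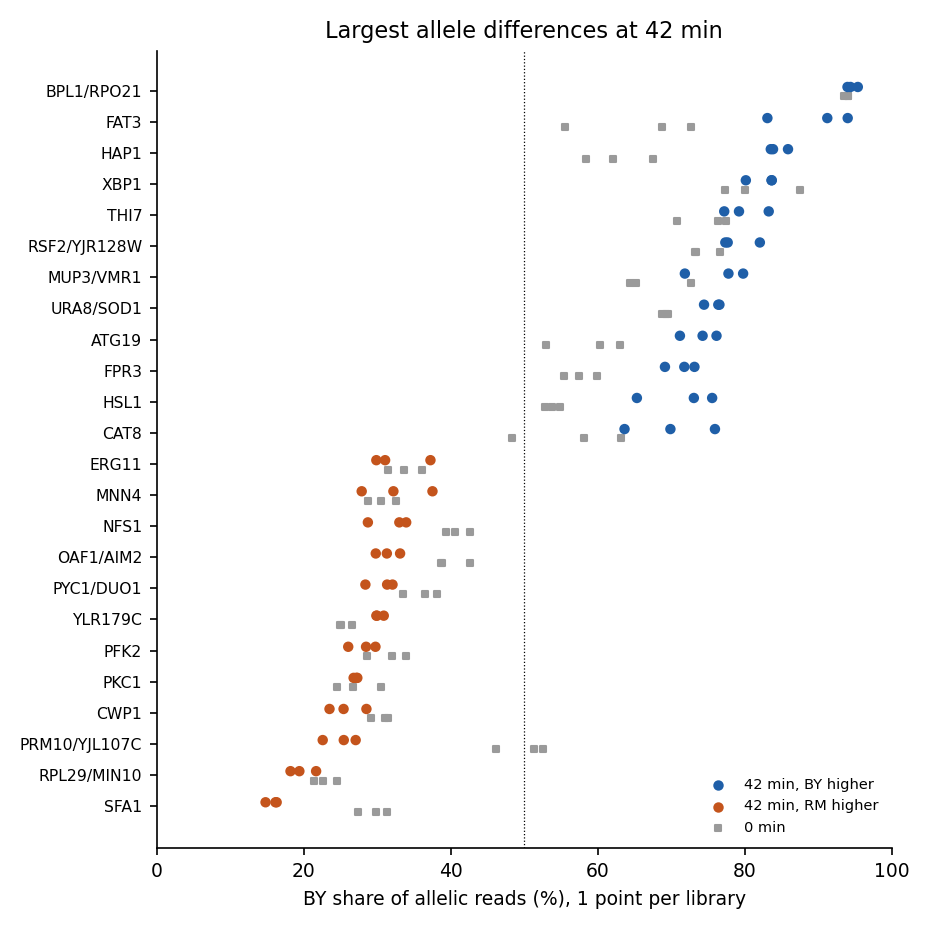
BY share of allelic reads (percent), 1 point per library, for the 24 features with the largest called differences at 42 min chosen by the naming rule, circles for 42 min and grey squares for 0 min. FAT3, HAP1 and PRM10/YJL107C lie away from their 0 min libraries, while those of XBP1 and PKC1 overlap.

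The ratios at 42 min were set beside those of the same cultures at 0 min, where 717 of 3030 tested features (23.7%) were called. Of the 2507 members tested at both times, 706 were called at 42 min and 644 at 0 min. Both times called 385, which is 54.5% of the 42 min calls and 59.8% of the 0 min calls, and 375 of these kept their direction. A call at only one time does not show a change, so the change was tested itself. It was called for 154 of 2507 features (6.14%), the BY share rising in 91 (3.63%) and falling in 63 (2.51%). The ratio moved away from equality in 111 and toward it in 43. Among the 321 features called at 42 min and not at 0 min, 78 had a called change.

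Under the same limits on reads, segments and copies, rising BY shares were led by YPL088W, a putative aryl alcohol dehydrogenase. Its BY share was 15.5% ± 3.11 at 0 min and 62.1%, 48.3% and 56.6% at 42 min, with no overlap between the times (change of log2(BY/RM) 2.77 ± 0.18, adjusted p = 3.37e-19, edgeR). The path ran through 22.8% ± 4.87 at 12 min and 33.7% ± 4.20 at 24 min. At 42 min it was called with BY higher (adjusted p = 0.0117), but not without replicate 1 (0.561) nor by DESeq2 (0.542). FAT3 went from 65.7% ± 8.99 to 89.4% ± 5.68 (2.64 ± 0.51, adjusted p = 0.000141), on 20.3 mean reads at 0 min. HAP1 went from 62.7% ± 4.62 to 84.4% ± 1.27 (1.64 ± 0.17, adjusted p = 1.75e-11). RPI1, a putative regulator linked to Ras signalling with 82 mean reads at 42 min, went from 47.2% ± 6.68 to 73.3%, 89.2% and 85.2% (2.56 ± 0.27, adjusted p = 1.56e-11). RDL1, a thiosulfate sulfurtransferase, moved from 22.5% ± 2.63 to 41.3% ± 1.66, so that it came closer to balance. HSL1 and ATG19 moved by 1.08 and 1.09 on the log2 scale, AQY3, an aquaglyceroporin homologue, by 1.31, and ARI1, an aldehyde reductase, by 1.01. The calls of ATG19 and AQY3 were lost without replicate 3 (adjusted p = 0.0953 and 0.0862) and that of ARI1 without replicate 2 (0.322). At the deepest SNV alone, HSL1 missed the threshold (adjusted p = 0.0819).

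Under these limits, falling BY shares were led by EXG1, a glucanase of the cell wall. It was 65.7% ± 1.48 BY at 0 min and 31.2%, 38.5% and 31.5% at 42 min, so the higher allele switched (change -1.92 ± 0.12, adjusted p = 2.19e-21, edgeR). YDL124W, an alpha-keto amide reductase, went from 81.4% ± 2.33 to 57.5% ± 2.08 (-1.67 ± 0.09, adjusted p = 7.25e-23) while its mean reads rose from 569 to 2833. PRM10/YJL107C went from 50.0% ± 3.37 to 25% ± 2.27 and had reached 32.6% ± 5.13 by 6 min. SFA1 went from 29.5% ± 2.01 to 15.7% ± 0.830, and had reached 15.6% ± 0.824 by 12 min. GPB2, of cAMP signalling, moved from 69.5% ± 3.02 to 50.8% ± 4.14, and was not called at 42 min (adjusted p = 0.914). At its deepest SNV the GPB2 change was not called (adjusted p = 0.754). ETT1, of translation termination, moved by -0.80 (not called at its deepest SNV, 0.232), YLR177W by -0.91 and YNL134C, an aldehyde reductase homologue, by -0.84. YLR177W no longer passed when replicate 1 (adjusted p = 0.296) or replicate 2 (0.0707) was left out, nor did YNL134C when replicate 2 (0.112) or replicate 3 (0.245) was. CIN5, a factor of the salt response, had 88.0% ± 6.12 and 58.2% ± 6.53 BY at the 2 times but did not pass (-2.38 ± 0.56, adjusted p = 0.102).

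**Figure D3:**
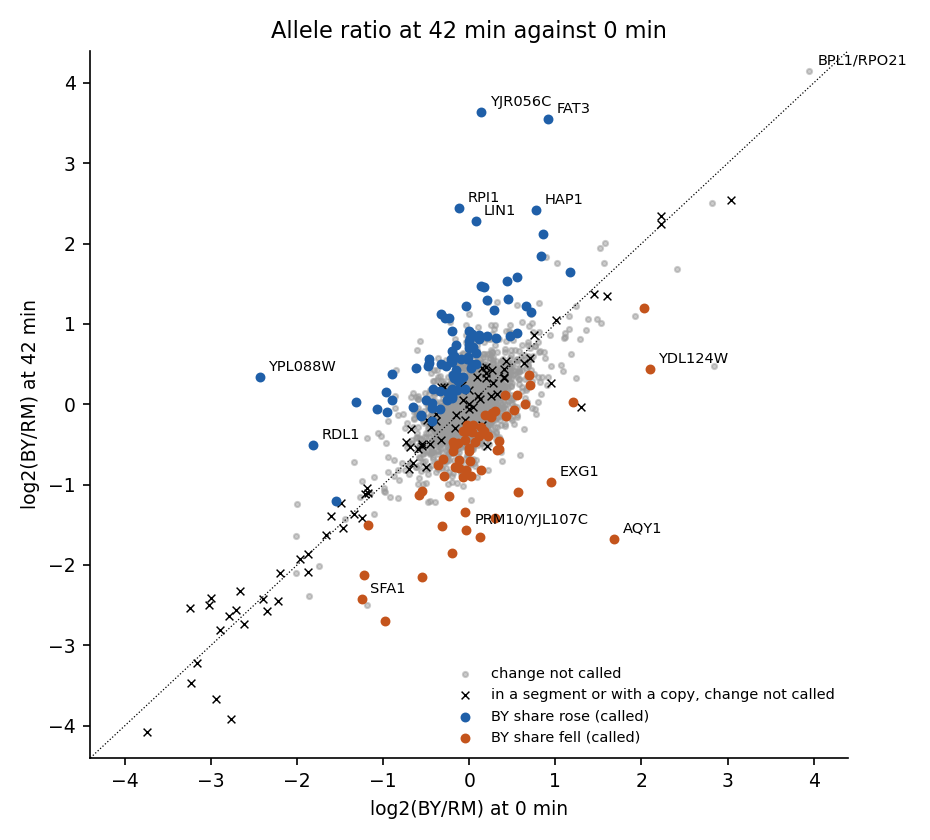
log2(BY/RM) at 42 min against 0 min for 2472 members, with 35 beyond 4.4 on either axis not drawn. Blue and orange points had a called change, crosses lie in a segment or have a near-identical copy and no called change, and the dotted line marks equal ratios. YPL088W and EXG1 lie on opposite sides of the line.

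**Figure D4:**
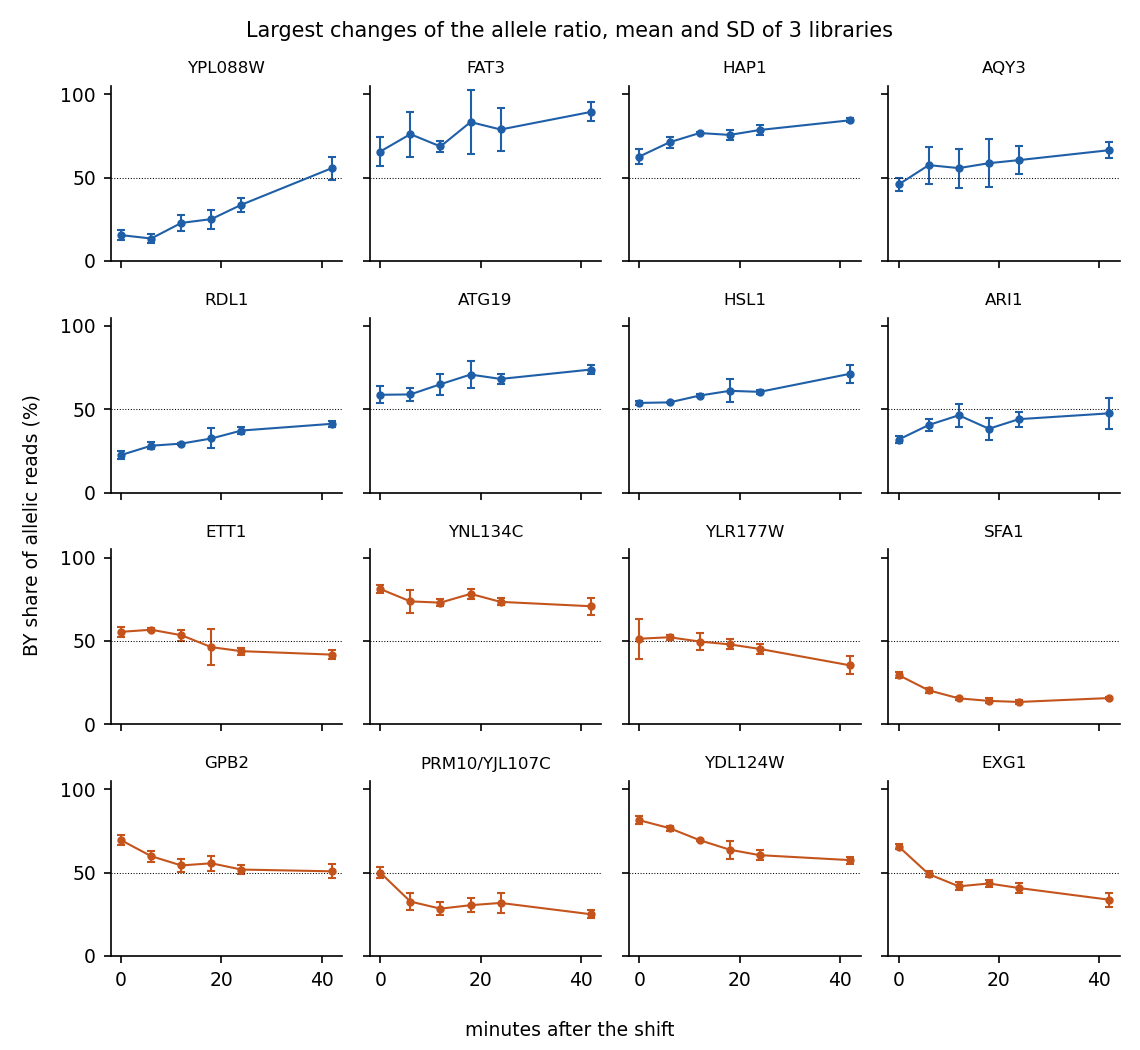
BY share (percent) at 0 to 42 min for the 16 features with the largest called changes chosen by the naming rule, as means with SD of 3 libraries, blue where the share rose and orange where it fell. EXG1 crosses 50% between 0 and 6 min, and YPL088W crosses it between 24 and 42 min.

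Gene lists were described by counts, beside the 28.3% called of all members at a median of 113 reads. Hsf1 chaperone genes were called in 17 of 26 cases, 10 with BY and 7 with RM higher, at a median depth of 1806 reads, and their median size was small (0.16 against 0.22 for all members, absolute log2). The largest were HCH1/ERG24, with 0 BY reads and RM at least 31.7-fold higher, PAU17/SSA2 at 36.4% ± 0.259 BY, and HSP26. PAU17/SSA2 leaned to BY at its deepest SNV (0.09, adjusted p = 0.264). SSA2 and SSA1 are near-identical copies, and how their reads split was not tested. HSP82, an Hsp90 with a close copy, was 58.8% ± 1.32 BY, HSP104, the disaggregase, 57.1% ± 0.666, and CPR6, an Hsp90 cochaperone, 41.1% ± 1.44. Msn2/4 stress genes were called in 23 of 38 cases, 16 with BY and 7 with RM higher, at a median of 846 reads. All 38 rose in the pool, where 1116 of all 2609 members rose, but for the 13 of them that were under the minimum at 0 min this direction was fixed by their choice. XBP1 and TKL2 led, with UGA2 in the segment on II. SOL4, a phosphogluconolactonase homologue, was 68.6% ± 2.02 BY, TFS1, an inhibitor of a vacuolar protease, 64.0% ± 4.09, and PRB1, vacuolar protease B, 40.2% ± 2.68. Trehalose and glycogen genes had 5 of 15 called, 3 to BY, among them glycogen synthases GSY2 at 58.3% ± 0.597 and GSY1 at 58.5% ± 3.70 (not called at its deepest SNV, adjusted p = 0.422). NTH2 lies in the segment on II.

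Genes of reductases and redox defence differed in either direction. Of 9 aldo-keto reductase and related dehydrogenase genes, 4 were called, 3 to BY. A called change from 0 min was found for 4 of the 9, beside 6.14% of all features. BDH1, butanediol dehydrogenase, was 37.2% ± 3.03 BY, YNL134C 70.8% ± 5.13, and YDL124W is given above. The 42 min calls of BDH1 and YDL124W were lost without a library term, which leaves the alleles unpaired (adjusted p = 0.143 and 0.0934). Oxidative stress genes were called in 10 of 23 cases, 6 to BY. Beside URA8/SOD1, GLR1, glutathione reductase, was 35.4% ± 1.91 BY, and GPX1, a glutathione peroxidase, was 63.5% ± 3.84, though its adjusted p was 0.0770 without replicate 1 and 0.126 without replicate 3. Ubiquitin and proteasome genes were called in 16 of 38 cases, 13 with RM and 3 with BY higher, with a median log2 of -0.12. RPN6, a lid subunit in the segment on IV, was 20.8% ± 1.22 BY, UBR1, the N-end rule ligase, 37.3% ± 1.44, and PRE5, a core subunit, 39.4% ± 8.91. The call of PRE5 was lost without replicate 2 (adjusted p = 0.465), and that of UBR1 at its deepest SNV (0.0789). None of the 37 tested at both times had a called change, where the share over all features was 6.14%.

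Central metabolism was mixed. Glycolysis and fermentation genes were called in 10 of 17 cases, 6 to BY, led by ALD2 at 72.8% ± 9.20 BY, PFK2, and ALD3 at 42.9% ± 1.69. ALD2 and ALD3, aldehyde dehydrogenase genes, are near-identical neighbours that went opposite ways, and ALD3 leaned to BY at its deepest SNV (0.17, adjusted p = 0.361). Hexose transport had 4 of 12 called, 2 each way. Besides HXT6 and HXT7, SNF3, a glucose sensor, was 70.2% ± 15.5 BY, with an adjusted p of 0.180 without replicate 3, and SNF1, the kinase of glucose repression, was 44.8% ± 1.79. TCA cycle genes had 6 of 20 called, 3 each way. IDH2, isocitrate dehydrogenase, was 59.5% ± 1.15 BY and MDH2, cytosolic malate dehydrogenase, 41.1% ± 11.5, which no longer passed when replicate 2 (adjusted p = 0.413) or replicate 3 (0.246) was left out. Respiratory chain genes were called in 18 of 28 cases, 8 to BY and 10 to RM. NDE2, with 0 BY reads in the segment on IV, and ATP20 at 29.4% ± 8.33 BY (adjusted p = 0.129 without replicate 1) were lowest, and CYC7, the hypoxic cytochrome c isoform, was highest at 64.2% ± 2.17. None of the 27 respiratory genes tested at both times had a called change, again beside 6.14% of all features.

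Mitochondrial ribosomal protein genes had 11 of 38 called, 4 to BY and 7 to RM. MRPL10 lies in the segment on XIV, RSM10/YDR042C was 65.3% ± 9.67 BY and CIP1/MRPS16 38.6% ± 4.35, and both latter calls were lost without replicate 2 (adjusted p = 0.0761 and 0.0806). RSM10/YDR042C was also lost without replicate 1 (0.238), and CIP1/MRPS16 without replicate 3 (0.111). Ribosome biogenesis genes had 6 of 34 called at a median of 46.5 reads. SOF1/PSR1, with a factor of small subunit assembly, was 78.3% ± 0.623 BY, and NOP53, of large subunit assembly, went from 55.5% ± 2.91 at 0 min to 26.6% ± 7.0. RTS2/BUD21/ATX2 was 67.7% ± 13.1 BY and lost its call without replicate 3 (adjusted p = 0.402).

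Amino acid synthesis genes were called in 18 of 57 cases, 13 with RM and 5 with BY higher, the deleted LYS2 among the 13. In the pool 5 of the 57 rose and 30 fell, where 1116 of all members rose and 736 fell. HIS5, a histidine synthesis enzyme, was 18.9% ± 4.18 BY (log2 -2.12, adjusted p = 2.92e-15, edgeR). YJR015W/ILV3, with a branched-chain synthesis enzyme, was 70.5% ± 4.26 BY but leaned to RM at its deepest SNV (-0.22, adjusted p = 0.745). ARO8, an aromatic aminotransferase, moved from 50.1% ± 0.744 to 64.1% ± 2.86 (change adjusted p = 3.14e-10). Ergosterol and sphingolipid genes had 10 of 35 called. None of the 35 had a called change, beside 6.14% of all features. ERG9/CTF8, with squalene synthase, was 99.6% ± 0.621 BY, and RSB1, a lipid translocator, 76.1% ± 3.13.

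Cell wall genes had 24 of 46 called (52.2%) at a median of 391 reads, 11 to BY and 13 to RM. Of the 44 tested at both times 8 had a called change, beside 6.14% of all features. WSC2 lies in the segment on XIV, TIP1, a mannoprotein, was 65.1% ± 2.12 BY, and SCW4, a glucanase-like wall protein, 64.6% ± 2.61. Transporter genes had 22 of 43 called (51.2%) at a median of 145 reads, 13 to BY and 9 to RM. All 43 were tested at both times, and 7 had a called change. FLR1, a drug exporter in the segment on II, had 0 BY reads against a sum of 261 RM reads, at least 87-fold apart. CTR3, a copper transporter, was 0.254% ± 0.441 BY, and GAP1, the general amino acid permease, 81.8% ± 2.80. PDR12, a weak acid exporter, went from 55.3% ± 3.32 to 70.2% ± 3.61 (change adjusted p = 0.000178).

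mRNA decay genes, whose products remove the transcripts measured here, had 12 of 36 called, 6 each way. Of the 34 tested at both times 1 had a called change, beside 6.14% of all features. CAF40, a subunit of the Ccr4-Not deadenylase in the segment on XIV, had 0 BY and 534 RM reads, at least 178-fold apart. DHH1/YDL159W-A, with a helicase of decapping, was 68.7% ± 4.91 BY and TRM3/RRP42, with an exosome subunit, 33.8% ± 4.77, in the segment on IV. CCR4, the deadenylase, was 57.6% ± 3.17 and PAT1, a decapping activator, 57.5% ± 1.88. EDC1, another decapping activator, was 62.8% ± 3.46, from 52.3% ± 9.10 at 0 min. Histone genes had 4 of 7 called, of which HHF1, HTA2 and HTB2 lie in the segment on II, and HHF1 and HTA2 also have a near-identical copy. Of 6 haploid-specific or mating genes, UBA1/STE6 alone was called, at 51.7% BY, and not when replicate 1 (adjusted p = 0.176) or replicate 2 (0.127) was left out, with the direction reversed at its deepest SNV (-0.025).

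Regulators known to differ between these strains were called in 11 of 20 cases, 7 to BY and 4 to RM. Of the 19 tested at both times 6 had a called change, beside 6.14% of all features. HAP1, RPI1 and HSL1 are given above. SSD1, an RNA-binding regulator, was 38.0% ± 2.98 BY. MKT1, of post-transcriptional regulation, was 43.2% ± 3.77 (adjusted p = 0.00825), but its adjusted p was 0.284 without replicate 2. IRA2, an inhibitor of Ras, was 53.6% ± 3.41 (adjusted p = 0.0142) and lost its call without replicate 3 (0.444). AMN1, of mitotic exit and cell separation, was not called at 53.1% ± 5.41 (adjusted p = 0.459).

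**Figure D5:**
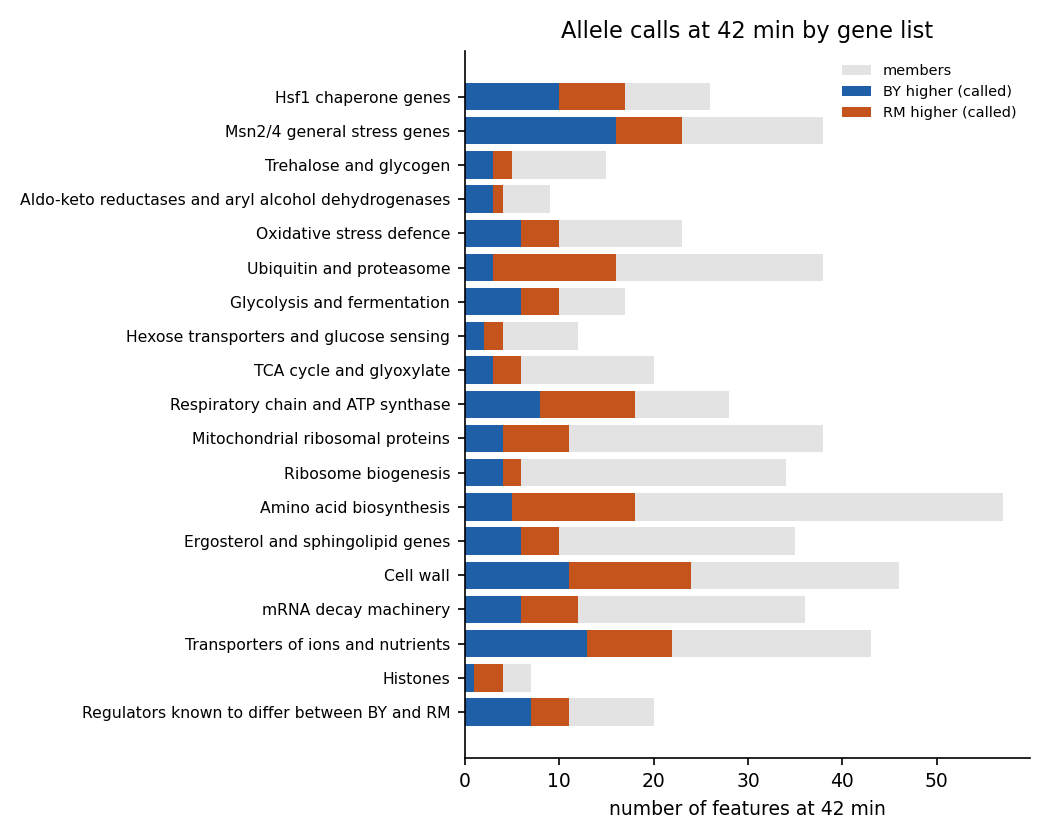
Number of features at 42 min in each gene list (bars from 0), with called members coloured blue where BY and orange where RM was higher, and the other members grey. Of the Msn2/4 members 16 were called to BY and 7 to RM, and of the ubiquitin and proteasome members 3 and 13.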

How the data were processed

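Poly(A) RNA was sequenced as paired-end reads. The deposited values are counts. Separate alignments to the BY and RM genomes were made by the authors, per the file headers, who removed duplicates and counted reads of each allele at SNVs within consolidated gene features, masking poorly mapping sites. The submitters' processing notes name BWA 0.5.9, Picard 1.43 and the build sacCer3. Of 35952 SNVs in the library tables, 30497 are in the series table, and the choice of SNVs is not stated in the labels or headers.

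SNV counts were summed per feature, so a read covering several SNVs may be counted at each. BY and RM counts were compared with edgeR 4.0.16 (R 4.3.3), with terms for library and allele and the library total as size for both alleles. The change from 0 to 42 min was the allele by time term. Features averaging 20 or more reads entered a test, and p-values were adjusted over all features tested. Abundance was tested on summed alleles after TMM scaling, as a share of the mRNA pool. CPM values scale reads to each library's allelic total. The tests were checked on simulated data. Duplicate libraries were looked for: counts of the 42 min libraries differed by 4.88 to 8.61 times the sampling noise (chi-square per degree of freedom).

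Replicate numbers pair the times, since each culture was sampled repeatedly. Deviations of feature levels from the time means correlated at 0.162, 0.117 and 0.128 for replicates 1 to 3, and deviations of the allele ratio at 0.0177, -0.0009 and 0.012. The 3 cultures are separate, but come from 1 hybrid.

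The members and the gene lists were chosen with earlier results of these data known. Features were named as the 12 largest called differences per direction at 42 min (at least 100 reads, the same side in all 3 libraries, 20 reads of each allele, outside segments and copies), the 8 largest per direction for the change under the same limits (20 reads of each allele at both times) and for features under the minimum at 0 min (the same limits, with a mean of 20 reads in place of 100), the 3 largest called per list, and a fixed set that includes HSP12 and HSP26. SSA4, CTT1 and list members beyond the 3 largest were chosen after their values were seen. Copies share at least 90% identity over 100 bp (blastn 2.17.0). Upstream sequences came from RefSeq R64, and of 5358 gene identifiers in the features 4843 matched it. Alternatives were other read minimums, TMM, DESeq2 1.42.0, limma 3.58.1 on log2((BY + 0.5)/(RM + 0.5)), other SNV sets, leaving out each replicate, segments, copies or features of several genes, and other model terms.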

Additional observations from a re-analysis of the deposited data

Results flagged for a closer look

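The allele ratio differed between 42 and 0 min in 154 of 2507 features (edgeR, change of log2(BY/RM), adjusted p under 0.05). Listed here are the 16 largest under the limits on reads, segments and copies. The BY share rose for YPL088W by 2.77, for FAT3 by 2.64, for HAP1 by 1.64, for AQY3 by 1.31, for RDL1 by 1.30, for ATG19 by 1.09, for HSL1 by 1.08 and for ARI1 by 1.01. The change was -1.92 for EXG1, -1.67 for YDL124W, -1.53 for PRM10/YJL107C, -1.19 for GPB2, -1.18 for SFA1, -0.91 for YLR177W, -0.84 for YNL134C and -0.80 for ETT1. Of these, EXG1 and ETT1 had more BY reads in all 3 libraries at 0 min and more RM reads in all 3 at 42 min. ETT1 went from 55.5% ± 2.88 BY to 41.7%, 44.3% and 39.4%, but its direction at 0 min reversed at its deepest SNV (-0.046). Larger called changes outside those limits included YJR056C (3.50, from 53.0% ± 5.87 to 92.9% ± 4.42 BY), AQY1 (-3.35) and ENA1 (-3.28), which has near-identical copies.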

How the results depend on the processing

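At 42 min DESeq2 called 243 features (241 of them among the 738), the deepest SNV per feature 360 (304) and the fit with no replicate block (no library term) 205 (all 205). Without each replicate in turn 570 to 597 were called, and limma called 661 (655). For features under the minimum at 0 min, where 32 were called, the counts were 13 with DESeq2, 12 with no replicate block and 23 to 30 without each replicate. A minimum of 10 reads gave 20 calls and a minimum of 50 reads gave 54. Another minimum changes which features lie under it at 0 min and over it at 42 min. Both counts therefore come from other sets of features, whose sizes are not given here. They do not show how stable the 32 calls were. At 0 min, where 717 were called, the counts were 234 with DESeq2, 390 at the deepest SNV, 312 with no replicate block and 495 to 585 without each replicate. For the change, where 154 were called, they were 39 with DESeq2, 34 at the deepest SNV, 78 to 99 without each replicate, and 172 with a replicate block, which kept all 154. Abundance calls numbered 2026 to 2044 without each replicate. The BY share of allelic reads at 42 min, 49.6%, was 50.4% with all SNVs, 49.9% without SNVs under 2% or over 98% BY and 50.1% without the segments. Directions reversed at the deepest SNV for log2(BY/RM) at 42 min of HSP12 (0.14), YJR015W/ILV3 (-0.22), UBA1/STE6 (-0.025), PAU17/SSA2 (0.089) and ALD3 (0.17), at 0 min of TRM3/RRP42 (0.028), PAU17/SSA2 (0.18) and ETT1 (-0.046), and for the change of YJR015W/ILV3 (-0.46). PFK2 at 0 min reversed without SNVs under 2% or over 98% BY (0.034). The cause was not tested. Over the features named at 42 min, 1338 values kept direction and call, 90 lost the call, 9 gained it and 5 reversed. Depth limits the rest: at 20 to 50 reads the BY share varied by a median SD of 7.44 percentage points, and intervals of small counts cover counting error only.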

Other observations

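Of the 385 features called at both 0 and 42 min, 10 had opposite directions, and these were chosen after their values were seen. Among them the 42 min call of YPL088W was lost without replicate 1 (adjusted p = 0.561), with DESeq2 (0.542) and with limma (0.0603). That of ETT1 was lost without replicate 3 (0.0536) and with DESeq2 (0.322). At 0 min the ETT1 call was lost with DESeq2 (0.0748). The NOP53 call at 0 min was lost when any replicate was left out (0.0616 to 0.275), with DESeq2 (0.729) and with limma (0.0566). AQY1, an aquaporin, went from 73.7% ± 9.41 BY to 31.8%, 20.0% and 23.8% (SD, n = 3; change -3.35, adjusted p = 3.76e-09, edgeR) on 21.3 and 98 mean reads. ATM1, a mitochondrial ABC transporter, went from 45.7% ± 2.54 to 68.3% ± 9.53, and TGL1, a steryl ester hydrolase, from 41.5% ± 2.81 to 58.1% ± 3.06. MTC3 went from 61.6% ± 10.9 to 29.7% ± 7.06. In FKS1/YLR342W-A, with a glucan synthase, the shares were 54.6% ± 0.625 and 48.2% ± 1.88.

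Transposons were looked at after HAP1 had been seen. Of 27 members within 1000 bp of an annotated Ty element in R64, 10 were called, 6 to BY and 4 to RM, against 28.3% of all members. RBH2, which overlaps YJRWTy1-2, was 71.8% ± 9.13 BY, POR1, the mitochondrial porin, 55.8% ± 1.08, and CTR3 lies 103 bp from YLRWTy2-1. Of the 4 to RM, CUS2 and MRPL10 lie in the segment on XIV and PDR3 in that on II.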
